A study of Homo sapiens with 8 samples.

Results

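The 9 genes for enzymes that make pyrimidine nucleotides and thymidylate were followed in 2 human myeloid cell lines treated with dG: TYMS, TK1, DTYMK, DUT, DCTD, CAD, DHODH, UMPS and CTPS1. They were chosen by name for their place in the pathway, and all 9 members were found, once each, among the 57992 genes of the deposited count table. KG1A is an established line of immature leukaemic cells and U937 an established line of monoblast character. The 4 groups were KG1A in PBS (the vehicle, 0 mM), KG1A in 10 mM dG, U937 in PBS and U937 in 10 mM dG, with 2 libraries each. All 4 groups shared an RPMI culture with dialyzed serum, from which small molecules have been removed. The length of exposure is not given in the sources used here.

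The pyrimidine ring is built from small precursors. CAD carries out the opening steps in 1 protein with several activities, DHODH oxidises the ring at the inner mitochondrial membrane, and UMPS closes the route to UMP. CTPS1 then turns UTP into CTP. For DNA, DCTD and DUT each produce dUMP, from dCMP and from dUTP, and DUT also keeps uracil out of DNA. TYMS methylates dUMP to thymidylate with a folate cofactor, TK1 makes thymidylate from salvaged thymidine, and DTYMK phosphorylates thymidylate from both sources towards dTTP. Proliferating cells raise much of this set around S phase, and several of these enzymes are drug targets, among them TYMS for fluoropyrimidines and DHODH for leflunomide.

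By the coordinates of the deposited table (GRCh38), CAD and DTYMK share chromosome 2 and the other 7 genes each lie on one of their own. CAD (ENSG00000084774, chr2:27217390-27243943), DHODH (ENSG00000102967, chr16:72008588-72027664), UMPS (ENSG00000114491, chr3:124730366-124749273) and CTPS1 (ENSG00000171793, chr1:40979335-41012565) are on the + strand. So are DUT (ENSG00000128951, chr15:48331011-48343373) and TYMS (ENSG00000176890, chr18:657604-673578). DCTD (ENSG00000129187, chr4:182890060-182917936), TK1 (ENSG00000167900, chr17:78174075-78187233) and DTYMK (ENSG00000168393, chr2:241675742-241686991) are on the - strand.

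The 8 libraries held 21053724 to 31135338 counts. Replicates correlated at 0.998 or more across genes (Pearson, log2 CPM) and differed by more than counting noise, with a chi-square per gene of 1.72 to 2.10. Whether replicates were grown apart is not stated, and p-values therefore reflect the spread between these libraries only, which may be technical. Mitochondrial genes took 9.12% to 9.83% of counts in the PBS libraries and 7.93% to 8.30% in the dG libraries, and the part of this in the results was not tested. Of 4 immature markers chosen for KG1A, summing to 152 RPKM in each of its PBS libraries and to 202 and 203 in dG, CD34 averaged 101 RPKM there and 0.029 RPKM in U937 in PBS, while FLT3 was near 0 in both lines. Of 6 myeloid markers chosen for U937, which summed to 324 to 334 RPKM in its dG libraries and to at most 297 in PBS, ELANE averaged 99.5 RPKM there and was at 0 counts in KG1A, while MPO was near 0 in both. Of 10 markers of other cell types, 7 were at 0 in each KG1A group and 6 in each U937 group, and CD3D, a T cell gene, averaged 102 RPKM in KG1A in PBS and 110 in dG.

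Levels are given as RPKM, reads scaled to exon length and to library size after TMM scaling, so that genes can be compared per length. The exon length is the union of all annotated exons, which lowers the value of a gene with many alternative exons. Between 96 and 13225 reads lay behind each member's value in a library. Effects are log2 fold changes ± SE from edgeR's quasi-likelihood test. The SE was worked back from the test, as the size of the change divided by the square root of the F statistic. A gene is called where the Benjamini-Hochberg adjusted p over all 18314 genes tested was under 0.05. All 9 members passed the filter on low counts. These are bulk values, and fewer cells in a given state cannot be told apart from less RNA per cell.

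In PBS, TYMS was the most abundant of the 9 mRNAs per length in both lines, and DHODH the least. TYMS lay at 152 and 154 RPKM in the KG1A libraries and at 121 and 123 in U937, and DUT came next at 54.0 and 51.5 RPKM in KG1A and 70.3 and 74.6 in U937. The order below them differed by line. In KG1A it ran TK1 (mean 31.8 RPKM), CTPS1 (23.8), DTYMK (22.3), CAD (18.3), DCTD (16.9), UMPS (11.2) and DHODH (2.61). In U937 it ran CAD (24.2), TK1 (20.9), CTPS1 (17.5), DCTD (15.1), DTYMK (10.0), UMPS (5.77) and DHODH (2.34). In both lines every member's 2 libraries lay apart from those of its neighbour in this order. TYMS alone held 46.0% of the summed level of the 9 genes in KG1A and 42.1% in U937. Of the 18314 genes tested, 152 had a higher mean level per length than TYMS in KG1A in PBS, whereas 9989 were higher than DHODH.

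**Figure D1:**
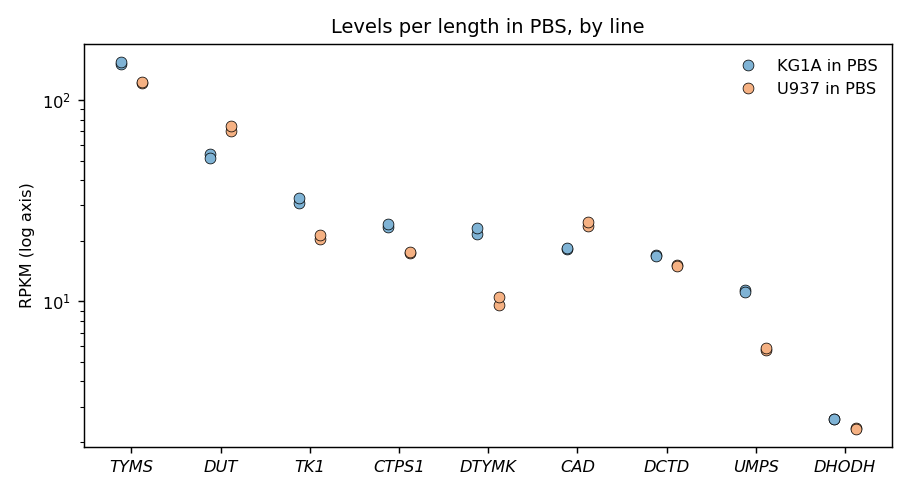
Level per length in PBS for the 9 enzyme genes, ordered by their KG1A mean, in RPKM on a log axis, with 1 point per library and 2 libraries per line. TYMS stands at the top and DHODH at the bottom in both lines, DUT and CAD lie higher in U937, and DTYMK shows the widest gap between the lines.

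The lines differed in most members before treatment, as they did in most of all genes tested. With U937 set against KG1A in PBS, 2 members were higher and 6 lower, where 82.3% of all genes tested were called (41.4% higher and 40.8% lower). DTYMK, the kinase that both routes to dTTP share, lay at 21.6 and 23.1 RPKM in KG1A and at 9.56 and 10.5 in U937, 2.24-fold lower (log2 difference -1.16 ± 0.06, adjusted p = 3.35e-19). UMPS was 1.95-fold lower in U937 (-0.96 ± 0.05, adjusted p = 3.35e-20). TK1 (-0.61 ± 0.05), CTPS1 (-0.44 ± 0.04) and TYMS (-0.33 ± 0.03) were lower in U937 by smaller amounts. The 2 members above KG1A were DUT (0.46 ± 0.04, adjusted p = 3.86e-14) and CAD (0.40 ± 0.04, adjusted p = 1.97e-11). DCTD passed the test at -0.16 ± 0.05 (adjusted p = 0.00404), although not without U937 PBS replicate 2 (adjusted p = 0.0647). DHODH did not pass it (-0.16 ± 0.08, adjusted p = 0.067, 95% interval -0.32 to 0.0042).

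Among the paralogs in the lists of related genes, the balance also depended on the line. CTPS2, the other CTP synthase, lay at 1.27 and 1.23 RPKM in KG1A in PBS, where CTPS1 averaged 23.8, and averaged 5.12 RPKM in U937 against 17.5. TK2, the mitochondrial thymidine kinase, averaged 0.723 RPKM in KG1A and 1.37 in U937 in PBS, far under the cytosolic TK1 in both.

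Short stretches of promoter sequence are shown for 6 members, TYMS and TK1 among them, to give the motif letters found near their starts. Sequences are from RefSeq (GRCh38.p14), where all 9 members matched, with 15 annotated starts in all. Windows from 250 bases before to 50 bases after a start were searched on both strands for E2F letters (TTTGGCGC, TTTCCCGC, TTTGCCGC or TTTCGCGC), the E-box CACGTG, the CCAAT box and the GC box GGGCGG. Matches of different motifs may share letters. Each line gives 30 bases, 5′ to 3′ on the gene's strand, with the matched letters, or their reverse complement, in capitals.
TYMS, E2F letters, chr18:657603-657632, + strand: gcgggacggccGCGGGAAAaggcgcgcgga
DUT, E2F letters at 2 places, chr15:48332151-48332180, + strand: gctgGCGGGAAAtttcggtTTTGGCGCgct
TK1, farther CCAAT box, chr17:78187113-78187142, - strand: cggccgggcgctgATTGGccccatggcggc
TK1, nearer CCAAT box, chr17:78187082-78187111, - strand: gggccggctcgtgATTGGccagcacgccgt
DTYMK, nearer CCAAT box, chr2:241686823-241686852, - strand: ctgttgacgccggCCAATgggagctccgga
DHODH, E-box, chr16:72008573-72008602, + strand: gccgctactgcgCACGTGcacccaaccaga
CAD, 2 GC boxes, chr2:27217312-27217341, + strand: ccCCGCCCcttacgtgcccggccCCGCCCc

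The E2F letters occurred at 2 members, TYMS and DUT, in 2 of the 15 member windows and in 3.31% of all 35116 promoter windows. At TYMS they lay 39 bases before the RefSeq start (657653), which is inside the gene as the deposited coordinates give it. At DUT they lay 42 and 27 bases before the most downstream of its starts (48332197), after its other starts and within an annotated exon. TK1 had no E2F letters in its windows but 2 CCAAT boxes, 77 and 46 bases before the downstream of its 2 starts (78187052) and after the upstream one (78187204), within an annotated exon. DTYMK had 2 CCAAT boxes, 92 and 24 bases before its start. CCAAT boxes were found in 4 of the 15 member windows and in 34.6% of all windows. Among the members the E-box occurred in 1 of the 15 windows, at DHODH, 159 bases before its RefSeq start, and in 7.26% of all windows. GC boxes were found in 11 of the 15 member windows, at 7 members, and in 45.0% of all windows. These are matches of letters and say nothing of binding in these cells, and a motif outside the windows was not looked for.

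In KG1A, dG was compared with PBS. TYMS and TK1, the enzymes that make thymidylate from dUMP and from thymidine, rose, and the other 7 members fell. Of all genes tested in KG1A 49.1% were called, 29.6% higher and 19.6% lower, and the median log2 fold change of all genes was 0.04, against -0.29 for the 9 members. The split over all genes moved with the scaling. It was 4584 higher and 4435 lower with library size alone, and 4605 and 4393 with KG1A fitted alone. The medians of all genes were then 0 and -0.0065, and the values of all 9 members were also lower than those given below. That of TYMS was 0.23 and 0.24 in place of 0.30, and that of DUT -0.22 in both in place of -0.16. The SE of each value does not include this shift, which changed no call of a member in KG1A. All 9 members had dG libraries that did not overlap the PBS libraries. The share of all genes for which this held was not counted, so it does not set the members apart from other genes.

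TYMS rose from 152 and 154 RPKM in PBS to 190.4 and 186 in dG, both dG libraries above both PBS libraries (log2 fold change 0.30 ± 0.03, 1.23-fold, adjusted p = 3.37e-10). TK1 rose from a mean of 31.8 RPKM to 47.7 and 44.5 (0.54 ± 0.05, 1.45-fold, adjusted p = 8.92e-12). TK1 thus reached the counted level of DUT, 46.6 and 47.7 RPKM in the same dG libraries, and the ranges of those genes overlapped there. These DUT values leave out reads counted at DUTP5, a copy of DUT elsewhere in the genome. In those libraries they were 8.18% and 7.94% of the reads of both, and the overlap was not computed with them added. DTYMK, the step after both, fell from 21.6 and 23.1 to 19.8 and 17.8 RPKM (-0.25 ± 0.06, adjusted p = 0.000357). Both enzymes that supply dUMP fell as well. DUT went from 54.0 and 51.5 RPKM to 46.6 and 47.7, the smallest change of the 9 (-0.16 ± 0.04, adjusted p = 0.000414). DCTD, the dCMP deaminase, went from 17.1 and 16.8 RPKM to 13.2 and 13.6 (-0.34 ± 0.05, adjusted p = 8.89e-07).

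The 4 members that lead from precursors to UMP and CTP all fell in KG1A. CAD, which holds the committed activity, went from 18.2 and 18.5 RPKM to 15.2 and 14.4 (-0.31 ± 0.04, adjusted p = 6.44e-08). DHODH showed the largest fall of the members, from 2.60 and 2.61 RPKM to 1.69 and 1.56 (-0.68 ± 0.09, adjusted p = 2.09e-08). Only 5.21% of all genes tested had a more negative log2 fold change than DHODH. UMPS went from 11.4 and 11.1 RPKM to 9.22 and 9.13 (-0.29 ± 0.05, adjusted p = 1.05e-06) and CTPS1 from 23.4 and 24.2 to 18.0 and 17.2 (-0.43 ± 0.04, adjusted p = 2.2e-11). All of these changes were under 2-fold. The share of TYMS in the summed level of the 9 genes went from 46.0% to 52.8%.

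**Figure D2:**
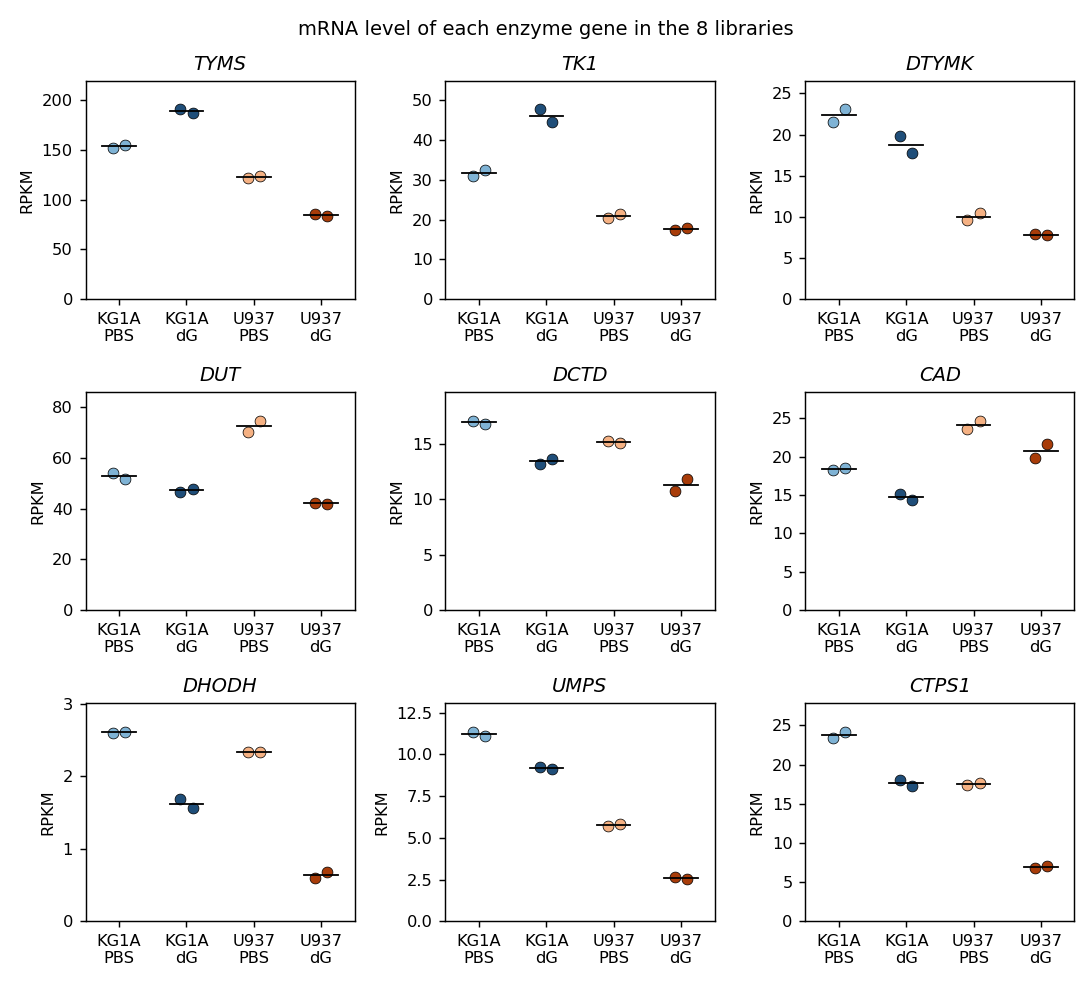
RPKM of each enzyme gene in the 8 libraries, with points for single libraries, black lines for the mean of 2 libraries, and axes that start at 0. In KG1A the dG points lie above PBS for TYMS and TK1 and below it for the other 7 genes, and in U937 they lie below PBS for all 9.

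The same comparison in U937 found all 9 members lower in dG and 0 higher, with 64.0% of all genes called, 31.5% lower and 32.4% higher. No dG library of any member overlapped a PBS library. Here too the share of all genes was not counted, so this does not set the members apart. Among the myeloid markers of U937, LYZ, the lysozyme gene, averaged 13.4 RPKM in PBS and 126 in dG, and PRTN3, a granule protease, 172 and 84.5, and the part of such a shift in the members' changes was not tested. The median of the members was -0.54, and that of all genes 0.00 on the same log2 scale. The deepest falls were in DHODH, CTPS1 and UMPS, enzymes of the route to UMP and CTP. CAD, at the head of that route, was among the least changed.

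DHODH went from 2.34 and 2.33 RPKM in PBS to 0.598 and 0.687 in dG, on 96 and 98 reads in the dG libraries (-1.87 ± 0.11, 3.65-fold lower, adjusted p = 2.35e-17). In the RPKM fit (pseudocount 1), which understates the change of a gene at this level, the DHODH value was -0.99 and that of CTPS1 -1.17. CTPS1 fell from 17.4 and 17.7 RPKM to 6.84 and 7.03 (-1.34 ± 0.05, 2.53-fold lower, adjusted p = 1.2e-23), and UMPS from 5.71 and 5.84 to 2.63 and 2.51 (-1.16 ± 0.06, 2.24-fold lower, adjusted p = 7.72e-19). These 3 genes fell more than 2-fold, and 2.82%, 5.55% and 7.23% of all genes tested had a more negative change than DHODH, CTPS1 and UMPS. CAD went from 23.6 and 24.7 RPKM to 19.8 and 21.6 (-0.22 ± 0.04, 1.17-fold lower, adjusted p = 6.7e-06). Its call did not hold without U937 dG replicate 1, where the change was -0.10. With DESeq2's size factors the change was -0.13 (adjusted p = 0.00365). Leaving out U937 dG replicate 1 also moved the scaling. The median of all genes in KG1A, which kept all its libraries, then shifted by -0.043.

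In the thymidylate branch of U937, DUT fell most, from 70.3 and 74.6 RPKM to 42.2 and 41.9 (-0.78 ± 0.04, 1.72-fold lower, adjusted p = 4.95e-20). TYMS went from 121 and 123 RPKM to 85.1 and 83.1 (-0.54 ± 0.03, 1.45-fold lower, adjusted p = 8.27e-17). DCTD, on 15.2 and 15.1 RPKM in PBS, was at 10.7 and 11.8 in dG (-0.43 ± 0.05, adjusted p = 1.2e-08). DTYMK, already low in this line, went from 9.56 and 10.5 RPKM to 7.86 and 7.82 (-0.35 ± 0.08, adjusted p = 0.000123). TK1 fell by a small amount, from 20.4 and 21.4 RPKM to 17.4 and 17.8 (-0.25 ± 0.06, adjusted p = 0.000428). The TK1 call ended without U937 dG replicate 1 (-0.17, adjusted p = 0.0609) and with DESeq2 (-0.16, adjusted p = 0.0659). The 2 members with E2F letters before their starts, TYMS and DUT, both fell in U937, but moved in opposite directions in KG1A.

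Whether the lines differed in their response was tested directly, as the U937 effect minus the KG1A effect. Of the 9 members 6 were lower in this difference and 0 higher, where 44.1% of all genes were called, 26.4% lower and 17.6% higher. TYMS (-0.84 ± 0.05, adjusted p = 1.37e-17) and TK1 (-0.78 ± 0.08, adjusted p = 7.5e-11) went in opposite directions in the lines, up in KG1A and down in U937. DUT (-0.62 ± 0.05, adjusted p = 2.06e-12), DHODH (-1.19 ± 0.14, adjusted p = 1.08e-08), UMPS (-0.87 ± 0.08, adjusted p = 4.89e-12) and CTPS1 (-0.90 ± 0.06, adjusted p = 1.58e-14) fell in both and further in U937. In the RPKM fit with pseudocount 1 the differences for DHODH and UMPS were -0.49 and -0.55, smaller in size than the -0.69 of CTPS1.

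No difference between the lines passed the test for the other 3. It was -0.10 ± 0.09 for DTYMK (adjusted p = 0.444, 95% interval -0.29 to 0.09), -0.09 ± 0.08 for DCTD (adjusted p = 0.344, -0.25 to 0.06) and 0.08 ± 0.06 for CAD (adjusted p = 0.252, -0.03 to 0.20). The median of this difference over all genes was -0.10, and it shifted by 0.098 with DESeq2's size factors and by 0.12 with no filter on low counts. With both of these settings, with DESeq2 and with RPKM, the difference for DTYMK and DCTD changed sign. That for CAD was 0.27 without U937 dG replicate 1 and passed the test in 6 of 16 alternatives, with a less negative value in U937 than in KG1A. Leaving out that library also shifted the median over all genes by 0.11, and leaving out U937 dG replicate 2 shifted it by 0.12. The split of all calls also moved, from 3230 higher and 4841 lower to 4021 and 3898 with DESeq2's size factors and 4865 and 3980 with RPKM at a pseudocount of 0.1.

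**Figure D3:**
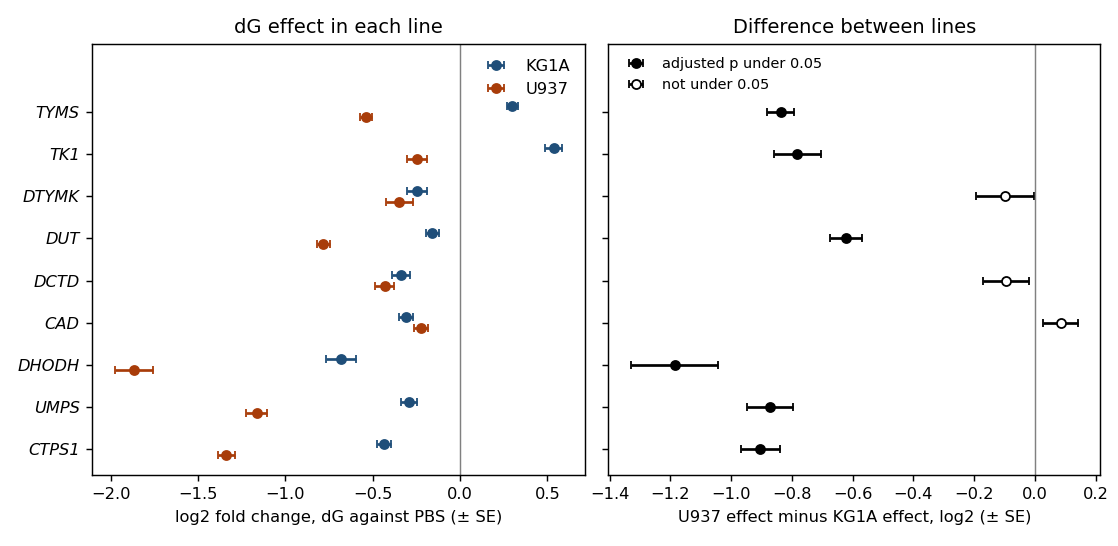
Left, log2 fold change of dG against PBS in KG1A (blue) and U937 (brown) for each gene. Right, the U937 effect minus the KG1A effect, filled where the adjusted p was under 0.05, with bars of ± 1 SE in both panels. TYMS and TK1 lie on opposite sides of 0 in the lines, and DHODH lies at -1.19 (-0.49 with RPKM at a pseudocount of 1).

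The members' patterns over the 8 libraries were compared as log2 CPM centred on each gene's mean. The closest pair was TYMS and TK1, with a root mean square distance of 0.19 log2 units, followed by DHODH and CTPS1 (0.22) and DUT and DCTD (0.23). The widest apart were CAD and UMPS (0.98), which catalyse the opening and closing steps of the same route. Among 10766 genes whose log2 CPM averaged 2 or more, the 3 most like TYMS were LMO2 (0.039), a transcriptional cofactor of blood stem cells, TMEM144 (0.052) and the nuclear pore gene NUP107 (0.057). Those most like CAD were the transcription factor SRF (0.045), PREPL (0.052) and NAA10 (0.059), a catalytic subunit of N-terminal acetylation. These distances describe 8 libraries in 4 groups and carry no test.

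Genes around the members at their loci were also read. ENOSF1 overlaps the end of TYMS on the opposite strand over 3255 bases, and TYMSOS overlaps its start over 737. The strand setting of the counting is not known here, and reads from either strand cannot be told apart in the overlaps. ENOSF1 averaged 5.37 RPKM in KG1A in PBS and 6.02 in dG, against 153 and 188 for TYMS, and its log2 fold changes were 0.17 ± 0.06 in KG1A (adjusted p = 0.0192) and -0.16 ± 0.07 in U937 (adjusted p = 0.028). The KG1A call did not hold under 7 of the other settings, with an adjusted p of 0.124 with DESeq2, 0.129 with each line fitted alone, 0.181 when scaled by library size alone, 0.221 unfiltered and 0.445 to 0.597 with RPKM, nor when any of 4 libraries was left out: PBS replicate 2 of KG1A (adjusted p = 0.23), dG replicate 2 of that line (0.374), or either dG library of U937 (0.172 and 0.171). The U937 call did not hold with DESeq2's size factors (adjusted p = 0.338), DESeq2 (0.489), no filter (0.202) or RPKM (0.359 to 0.497), nor without PBS replicate 2 of U937 (adjusted p = 0.283) or either of its dG libraries (0.843 and 0.0558). TYMSOS, at 2.97 RPKM in KG1A in PBS, did not pass in either line (adjusted p = 0.348 and 0.101). RP11-154J22.1 overlaps the start of DUT over 846 bases on the opposite strand and held at most 61 reads in a library. RP11-71H17.1 and MIR544B lie within UMPS, over 337 and 78 bases. The former was at 0 reads in every library, and the latter held at most 3 reads in a library.

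DUT has processed copies elsewhere in the genome, and reads may be divided between them. The copy DUTP5 on chromosome 6 was counted at 254 to 715 reads per library, which is 7.41% to 8.29% of the reads of DUT and DUTP5 together. DUTP5 followed DUT closely, with log2 fold changes of -0.14 ± 0.08 in KG1A (adjusted p = 0.167) and -0.78 ± 0.08 in U937 (adjusted p = 1.19e-10), where DUT itself was at -0.16 and -0.78. The share hardly varied between groups, so adding these reads leaves the direction of DUT as it was: DUT and DUTP5 together went from 215 and 206 CPM to 186 and 191 in KG1A and from 281 and 297 to 169 and 166 in U937.

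The other genes of pyrimidine metabolism came from lists chosen by function. Among 15 genes of pyrimidine salvage and nucleotide kinases, 3 were higher and 3 lower in KG1A, and 6 higher and 4 lower in U937, with medians of 0.05 in both. Of all genes, 49.1% were called in KG1A and 64.0% in U937, as given above. NME1, a nucleoside diphosphate kinase, fell in both lines (-0.63 ± 0.05 and -1.48 ± 0.07), although its reads may be shared with its near copy NME2. TK2 rose in both, by 0.52 ± 0.12 in KG1A and 0.84 ± 0.09 in U937, where TK1 fell. NME3 rose in KG1A (0.67 ± 0.15). CDA, cytidine deaminase, rose in U937 (0.54 ± 0.08), from a mean of 17.2 to 25.1 RPKM, and was at 0 reads in KG1A. CTPS2 fell in U937 by less than CTPS1 (-0.39 ± 0.08) and in KG1A gave 0.08 ± 0.12 (adjusted p = 0.643), or -0.10 without KG1A dG replicate 2. The CTPS2 fall in U937 did not pass with RPKM at a pseudocount of 0.1 (adjusted p = 0.0594).

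Of the 13 genes of pyrimidine breakdown and dephosphorylation, 11 were tested, with 2 higher and 2 lower in KG1A and 4 and 4 in U937 (medians 0.11 and 0.16, the former also 0.11 over the 8 genes above 3 reads in a group). DCTPP1, which hydrolyses dCTP and its analogues, fell in both lines, by 0.62 ± 0.07 in KG1A and from a mean of 27.4 to 9.67 RPKM in U937. NT5C3A, a pyrimidine 5′ nucleotidase, rose in KG1A (0.78 ± 0.05). Its fall in U937 (-0.23 ± 0.06, adjusted p = 0.000803) ended without U937 dG replicate 1 (adjusted p = 0.0616) or replicate 2 (adjusted p = 0.0582) and with DESeq2 (adjusted p = 0.116). NT5C, a cytosolic deoxynucleotidase, fell in U937 (-1.30 ± 0.14). Its fall in KG1A (-0.27 ± 0.11, adjusted p = 0.0449) ended without KG1A PBS replicate 1 (adjusted p = 0.328) or KG1A dG replicate 2 (adjusted p = 0.196) and with DESeq2 (adjusted p = 0.179). SAMHD1, which degrades dNTPs, rose in U937 (0.79 ± 0.10).

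The folate cycle, which hands TYMS its methyl group, had 16 of 17 genes tested, with 5 higher and 8 lower in KG1A (median -0.12, or -0.15 over the 15 genes above 3 reads in a group) and 2 higher and 10 lower in U937 (median -0.52). SHMT2, the mitochondrial serine hydroxymethyltransferase, rose in KG1A (0.45 ± 0.05, from a mean of 14.4 to 19.7 RPKM) and fell in U937 (-0.61 ± 0.04, from 55.5 to 36.3). MTHFD1L (-1.63 ± 0.05) and MTHFD1 (-1.32 ± 0.04) had the largest falls in U937. In KG1A, ALDH1L2 (1.48 ± 0.09) and the folate hydrolase GGH (0.62 ± 0.03) rose, GGH from 83.1 to 128 RPKM. GGH was near 0 in U937, at 0.031 RPKM in PBS.

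S phase and cycling genes were counted beside the members because the thymidylate enzymes are made around S phase. In KG1A 14 of 23 were higher and 6 lower (median 0.17), and in U937 7 were higher and 16 lower (median -0.58). Over all genes tested the shares were 29.6% higher and 19.6% lower in KG1A, and 32.4% and 31.5% in U937. The KG1A split moved with the scaling, as given above. In the difference between the lines 20 were lower and 0 higher (median -0.63). Of all genes tested 26.4% were lower in it and 17.6% higher (median -0.10), a split that also moved with the scaling. The count of this list in the difference was not repeated under the alternatives. In KG1A the polymerase subunit POLE (0.80 ± 0.04), CCNE2 (0.80 ± 0.04) and CDT1 (0.78 ± 0.05) had the largest rises among those with a log2 CPM averaging 2 or more. In U937 POLA1 (-2.09 ± 0.04), GINS2 (-1.31 ± 0.07) and MCM5 (-1.06 ± 0.04) had the largest changes by the same measure. MKI67, a general marker of cycling cells, rose in both lines (0.46 ± 0.03 and 0.34 ± 0.03). The part of cell cycle phase in the members' changes was not tested.

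**Figure D4:**
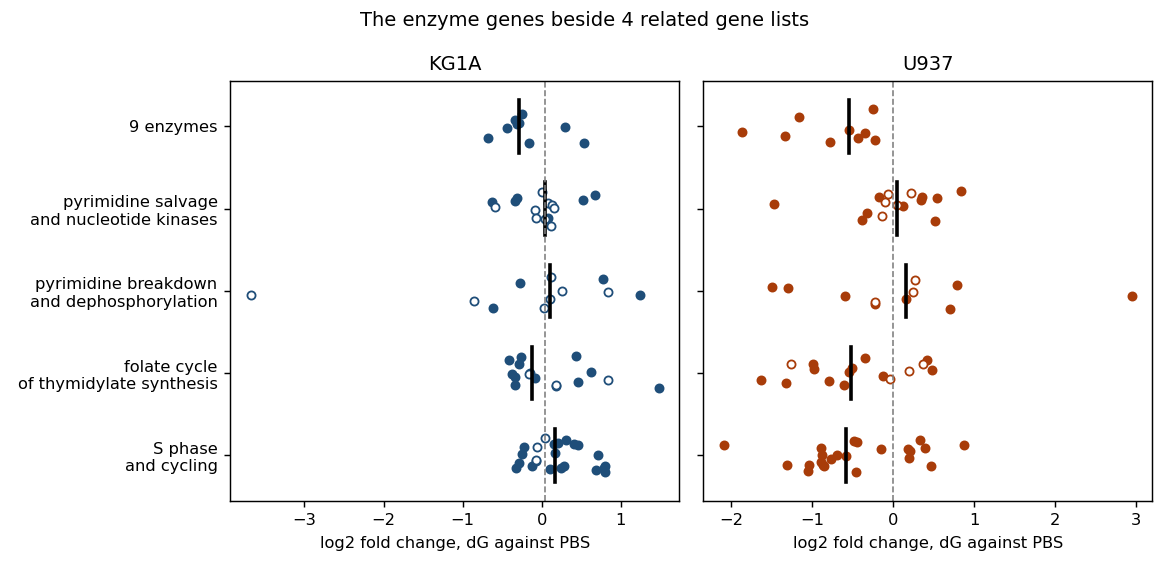
Log2 fold change of dG against PBS for the 9 enzyme genes and the tested genes of 4 related lists in KG1A (left) and U937 (right), filled where the adjusted p was under 0.05. Black bars are list medians and the dashed line is the median of all genes tested. The 9 enzymes have a median of -0.29 in KG1A and -0.54 in U937. The leftmost open point in KG1A is TYMP, which had 0 reads in dG.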

How the data were processed

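Messenger RNA of KG1A and U937 cells in PBS or dG was sequenced in 8 libraries, grouped by their titles. The authors deposited whole-number read counts per gene and RPKM values. The submitters' processing notes name bcl2fastq 2.18.0.12, TopHat2, HTSeq 0.11.2 and GRCh38 (hg38). The annotation release and strand setting are not given in the sources used here. The deposited RPKM equalled counts per exon length and a library size scaled by TMM over all genes. Levels in the text were computed here from the counts, with TMM factors over the 18314 genes that passed filterByExpr. Library totals of 21053724 to 31135338 counts make 1 count worth 0.0321 to 0.0475 CPM before scaling.

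Genes were tested with edgeR 4.0.16 under R 4.3.3 (quasi-likelihood F test, two-sided) in 1 model with a mean per line and treatment, with 4 residual degrees of freedom and Benjamini-Hochberg adjustment. The code was tested on simulated data, with changes given to genes drawn at random over all levels. For dG against PBS in KG1A it recovered 38% of 1.25-fold, 70% of 1.5-fold, 82% of 2-fold and 92% of 4-fold changes. Alternatives were DESeq2 1.42.0, its size factors, library size alone, no filter, each line alone, limma 3.58.1 on log2 RPKM (pseudocounts 1 and 0.1), a replicate block and each library left out. The members and gene lists were chosen with earlier results of these data known. All members are named. Per list and line, up to 3 called genes with the largest change and a mean log2 CPM of at least 2 are named, with genes overlapping a member and the nearest patterns. CTPS2, MKI67, DUTP5, TYMP and the markers, and SHMT2 and NT5C3A in U937, were named outside this rule after their values were seen. A gene that the rule names is not reported here.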

Additional observations from a re-analysis of the deposited data

Results flagged for a closer look

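The effect of dG differed between U937 and KG1A in 6 of the 9 enzyme genes by a test of the difference itself (edgeR), which called 44.1% of all genes tested, 26.4% lower and 17.6% higher. On the log2 scale the U937 effect minus the KG1A effect was -0.84 for TYMS, -0.78 for TK1, -0.62 for DUT, -1.19 for DHODH, -0.87 for UMPS and -0.90 for CTPS1. TYMS and TK1 moved in opposite directions in the lines, and the other 4 fell in both.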

How the results depend on the processing

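Of 594 alternative values for the members, 567 kept their direction and their side of the threshold. The 6 called differences between the lines did so in all 16 alternatives. The difference between the lines changed sign for DTYMK to 0.0027 with DESeq2's size factors, 0.00051 with DESeq2, 0.030 with no filter, 0.041 and 0.029 with RPKM at pseudocounts 1 and 0.1, and 0.041 with unfiltered RPKM, and ran from -0.18 to 0.04 with 1 library left out. For CAD the latter range was 0.04 to 0.27. For DCTD the values were 0.0064, 0.0074, 0.033, 0.036, 0.035 and 0.036, and -0.12 to 0.10. The count of members higher in this difference went from 0 to 1 (CAD) with DESeq2's size factors, DESeq2, no filter, RPKM at either pseudocount and without U937 dG replicate 1 (range 0 to 1). All genes higher in it numbered 5262, 4865 and 4950 with the 3 RPKM settings, and lower ones 3115 with DESeq2. In KG1A, breakdown genes called lower numbered 1 with DESeq2 and each RPKM setting and 1 to 2 with 1 library left out, those called higher numbered 1 with unfiltered RPKM, and salvage genes called lower 5 with RPKM at pseudocount 1. In U937, salvage genes called lower numbered 2 with RPKM at pseudocount 0.1 and unfiltered. In KG1A the split of all calls, 5413 higher and 3581 lower, was 4085 and 4202 with RPKM at pseudocount 1. DHODH passed between the lines in PBS with no filter (adjusted p = 0.0377) and with RPKM at pseudocount 1 (adjusted p = 0.0364). Of 629 alternative values for the other genes named, 589 kept direction and side of the threshold, and CTPS2 in KG1A changed sign (-0.10) without KG1A dG replicate 2, with a range of -0.10 to 0.25 when 1 library was left out. DUTP5 in KG1A passed in 6 alternatives, with RPKM at pseudocount 1 at an adjusted p of 0.0341. The cause was not tested. Where a group kept 1 library, it was assumed to vary like the others. The filter and the scaling were computed again with each library left out. A call lost in this way may therefore reflect a shift of all genes as well as the library itself. Same-numbered libraries did not deviate together (correlation -0.05 in KG1A and 0.01 in U937), so they share only a number. The replicate block gave 5281 higher and 3461 lower genes in KG1A and changed no call of a member.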
